A study of Mus musculus with 12 samples.

Results

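The Wnt ligands examined here were Wnt1, Wnt2, Wnt3a, Wnt4, Wnt5a, Wnt5b, Wnt6, Wnt10a, Wnt10b and Wnt16. For these 10 genes, every region of the histone marks H3K27ac and H3K27me3 that overlapped the GENCODE gene body plus 20 kb on each side was taken, whatever its signal. This gave 22 of 31617 H3K27ac regions and 12 of 28047 H3K27me3 regions, or 34 of 59664 in all. The regions were measured by CUT&RUN, in which permeabilised cells are bound by an antibody, a nuclease fused to an antibody-binding protein cuts the chromatin beside it, and the DNA that is set free is sequenced. The cells were mouse mesenchymal stem cells (MSCs), stromal cells able to form bone, fat and cartilage. Young MSCs came from mice of 3 to 5 months and old MSCs from mice of 18 to 22 months. Both ages were kept at 2% oxygen in αMEM with serum throughout culture, and the labels name no genetic alteration or added agent. There were 12 libraries in 4 groups, young and old for each mark, with n = 3 per group. The strain, the sex and whether a sample was 1 animal or a pool were not given in the sources used here, so the p-values measure the spread between these samples, which may be technical.

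Wnt proteins are secreted, lipid-modified signals that bind Frizzled receptors on nearby cells. With Lrp5 or Lrp6 as co-receptor they stabilise β-catenin, which acts with TCF and LEF factors on target genes, whereas Wnt5a and Wnt5b mostly signal without β-catenin, through receptors such as Ror1 and Ror2. In bone marrow stroma, signalling through β-catenin favours the osteogenic over the adipogenic fate. H3K27ac marks active promoters and enhancers, and H3K27me3, placed by Polycomb on the same lysine, marks repressed genes. A given lysine can carry only 1 of these marks at a time.

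The libraries held 2750953 to 5541429 reads for H3K27ac and 3622108 to 9947515 reads for H3K27me3. Values below are the deposited signal, that is reads of a region per 1000000 library reads and per 0.5 kb, divided by a library factor of 0.905 to 1.13 (H3K27ac) or 0.920 to 1.06 (H3K27me3). This scaled signal grows with the length of a region, so levels of different regions are compared only per kb. The signal of 3 reads, below which a value is not distinguished from 0, was 1.08 to 2.18 for H3K27ac and 0.603 to 1.66 for H3K27me3 before scaling. Of 10 MSC markers checked, 10 carried H3K27ac over the transcription start site (TSS), and Nt5e carried H3K27me3 as well. Of 6 blood, 4 endothelial and 3 epithelial markers, 0 carried H3K27ac there.

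The Wnt ligands were in different chromatin states. H3K27ac without H3K27me3 lay over every annotated TSS of Wnt5a, with 2 starts, and of Wnt5b, with 4 starts. H3K27me3 without H3K27ac lay over the TSS of 7 ligands, namely Wnt1, Wnt2, Wnt3a, Wnt4, Wnt6, Wnt10a and Wnt16. Wnt10b alone carried both, with H3K27me3 over its 5 annotated starts and H3K27ac over 3 of them. Among 21938 protein-coding genes, 46.9% had only H3K27ac at the TSS, 25.3% only H3K27me3, 3.16% both and 24.6% neither. H3K27me3 covered 100% of the gene body of Wnt1, Wnt3a, Wnt6, Wnt10a, Wnt10b and Wnt16, and 79.4% of that of Wnt2. It covered 0% of the bodies of Wnt5a and Wnt5b, where H3K27ac covered 47.4% and 64.7%. The map of the loci shows these blocks.

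**Figure D1:**
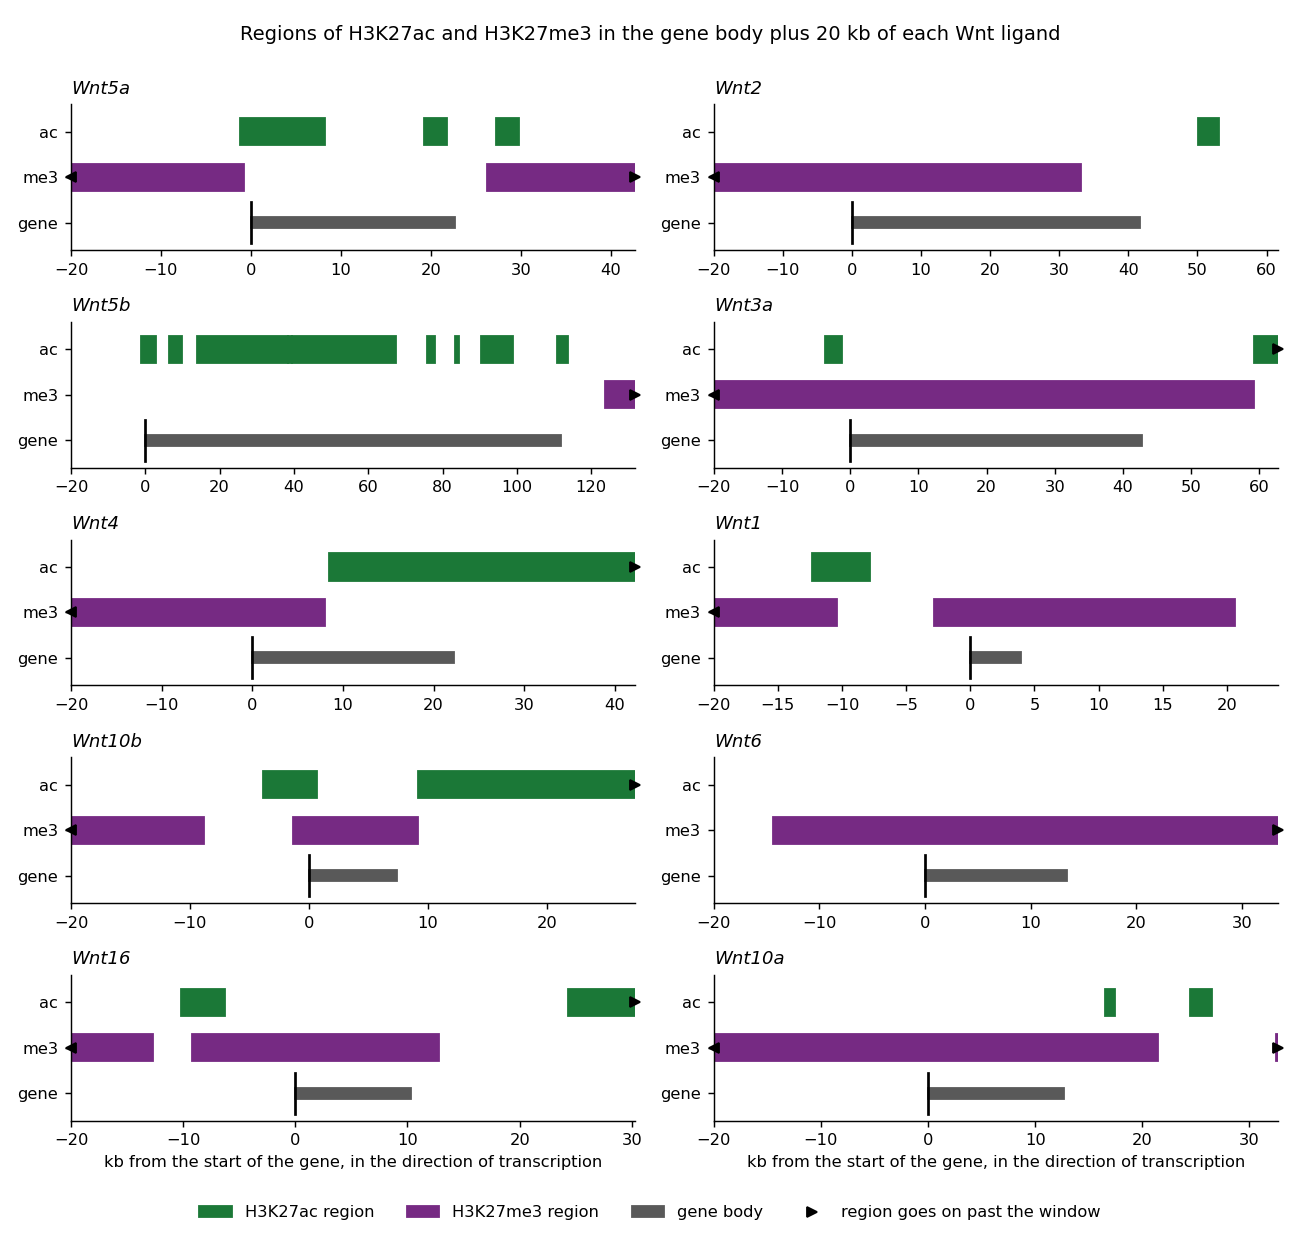
Regions of H3K27ac (green) and H3K27me3 (purple) in the gene body (grey) plus 20 kb of each Wnt ligand, in kb from the gene start in the direction of transcription; arrowheads mark regions that continue past the window. Wnt5a and Wnt5b have H3K27ac over the start, the other ligands have H3K27me3, Wnt10b has both, and in Wnt4 the marks meet inside the gene.

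Promoter sequences are shown for contrasting states, because Polycomb domains and active promoters of mammals both often lie on CpG-rich DNA. RefSeq entries on GRCm38.p6 were matched for 8 of 10 ligands, as 10 starts, with Wnt5a and Wnt10a unmatched. Each sequence is the 250 bases before the start, 5′ to 3′ on the strand of the gene, with CpG dinucleotides in capitals.
Wnt5b, outermost start, H3K27ac only, chr6:119544348-119544597, minus strand: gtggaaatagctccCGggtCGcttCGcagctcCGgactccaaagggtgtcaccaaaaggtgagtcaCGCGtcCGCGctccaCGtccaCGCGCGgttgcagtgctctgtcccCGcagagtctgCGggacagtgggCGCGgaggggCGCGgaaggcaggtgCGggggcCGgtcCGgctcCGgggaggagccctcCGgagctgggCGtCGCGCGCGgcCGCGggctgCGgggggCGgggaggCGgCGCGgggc
Wnt5b, inner start, H3K27ac only, chr6:119467212-119467461, minus strand: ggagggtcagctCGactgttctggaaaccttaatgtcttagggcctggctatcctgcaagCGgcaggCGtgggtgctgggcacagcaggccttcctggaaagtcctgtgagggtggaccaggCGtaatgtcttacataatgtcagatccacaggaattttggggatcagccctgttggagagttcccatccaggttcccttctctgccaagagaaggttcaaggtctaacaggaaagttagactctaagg
Wnt10b, both marks, chr15:98778151-98778400, minus strand: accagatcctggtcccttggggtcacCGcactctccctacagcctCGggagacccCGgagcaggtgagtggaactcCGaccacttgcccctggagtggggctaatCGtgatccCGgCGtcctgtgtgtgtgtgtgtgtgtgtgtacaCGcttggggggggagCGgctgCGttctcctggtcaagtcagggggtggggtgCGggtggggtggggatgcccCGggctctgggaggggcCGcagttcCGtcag
Wnt1, H3K27me3 only, chr15:98789607-98789856, plus strand: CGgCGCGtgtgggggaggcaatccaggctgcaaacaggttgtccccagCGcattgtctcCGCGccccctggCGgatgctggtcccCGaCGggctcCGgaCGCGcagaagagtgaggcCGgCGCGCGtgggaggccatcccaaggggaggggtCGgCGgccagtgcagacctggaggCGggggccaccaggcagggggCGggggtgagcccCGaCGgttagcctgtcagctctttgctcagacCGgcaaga
Wnt3a, H3K27me3 only, chr11:59290752-59291001, minus strand: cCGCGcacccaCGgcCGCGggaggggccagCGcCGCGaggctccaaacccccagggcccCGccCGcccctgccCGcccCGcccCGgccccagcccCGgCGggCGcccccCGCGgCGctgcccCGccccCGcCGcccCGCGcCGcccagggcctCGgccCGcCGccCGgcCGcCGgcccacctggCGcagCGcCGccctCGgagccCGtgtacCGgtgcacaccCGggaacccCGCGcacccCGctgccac
Wnt16, H3K27me3 only, chr6:22287977-22288226, plus strand: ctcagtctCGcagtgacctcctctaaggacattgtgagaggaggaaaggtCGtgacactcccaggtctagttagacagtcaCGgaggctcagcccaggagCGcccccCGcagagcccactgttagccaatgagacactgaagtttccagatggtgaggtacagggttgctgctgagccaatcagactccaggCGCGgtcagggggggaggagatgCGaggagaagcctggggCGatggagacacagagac

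CpG content varied widely within a state. The outermost start of Wnt5b held 35 CpG, a number reached by 2.97% of 32851 promoters of the same length, whereas the inner start shown held 4, reached by 62.2%. Wnt3a held 41 (1.09%), Wnt1 23 (13.3%), Wnt10b 14 (29.4%) and Wnt16 9 (40.3%). Of the ligands not printed, Wnt4 had the most, with 44 (0.539%). Over all promoters with H3K27me3 as their sole mark the median was 4, and over those with H3K27ac as their sole mark it was 15. The 6 H3K27me3-only starts of the ligands held 9 or more each. CG was the only motif counted, and it reads the same on both strands.

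The level of H3K27me3 over the ligand starts that carried it lay between percentile 68.2 and percentile 99.8 of all H3K27me3 regions. Per kb of region, young MSCs had a scaled signal of 5.15 ± 0.501 over Wnt1 (SD, n = 3), which lay at percentile 99.8 of all H3K27me3 regions by the mean of the 6 libraries. Wnt3a followed with 4.89 ± 0.344 (percentile 99.7), and the young ranges of these neighbours overlapped. Wnt1 and Wnt3a are classical β-catenin-activating ligands. Wnt16, which is expressed by osteoblasts and restrains bone resorption, had 3.96 ± 0.311 per kb (percentile 99.0). The domain shared by Wnt6 and Wnt10a had 3.75 ± 0.294 (percentile 98.5), again within the range of the ligand above it. The next levels were apart from each other in the young libraries. They were 2.94 ± 0.111 over Wnt4 (percentile 95.4), 2.08 ± 0.047 over Wnt2 (percentile 83.9) and 1.76 ± 0.055 over Wnt10b. The last of these, over the start that also carried H3K27ac, lay at percentile 68.2.

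H3K27ac per kb over the starts that carried it was less extreme. It was 2.70 ± 0.216 over Wnt5a in young MSCs (SD, n = 3; percentile 71.5 of all H3K27ac regions). The 4 starts of Wnt5b lay under 3 regions, taken here from the 5′ end as the first, the second and the third start. The region over the second had 3.23 ± 0.802 (percentile 94.6), and those over the first and over the third had 1.94 ± 0.456 (percentile 19.9) and 1.92 ± 0.046 (percentile 41.1). Wnt10b had 1.99 ± 0.302 (percentile 46.5). The young ranges of Wnt5a and of the second Wnt5b start overlapped, as did those of Wnt10b and of the first and the third Wnt5b start.

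**Figure D2:**
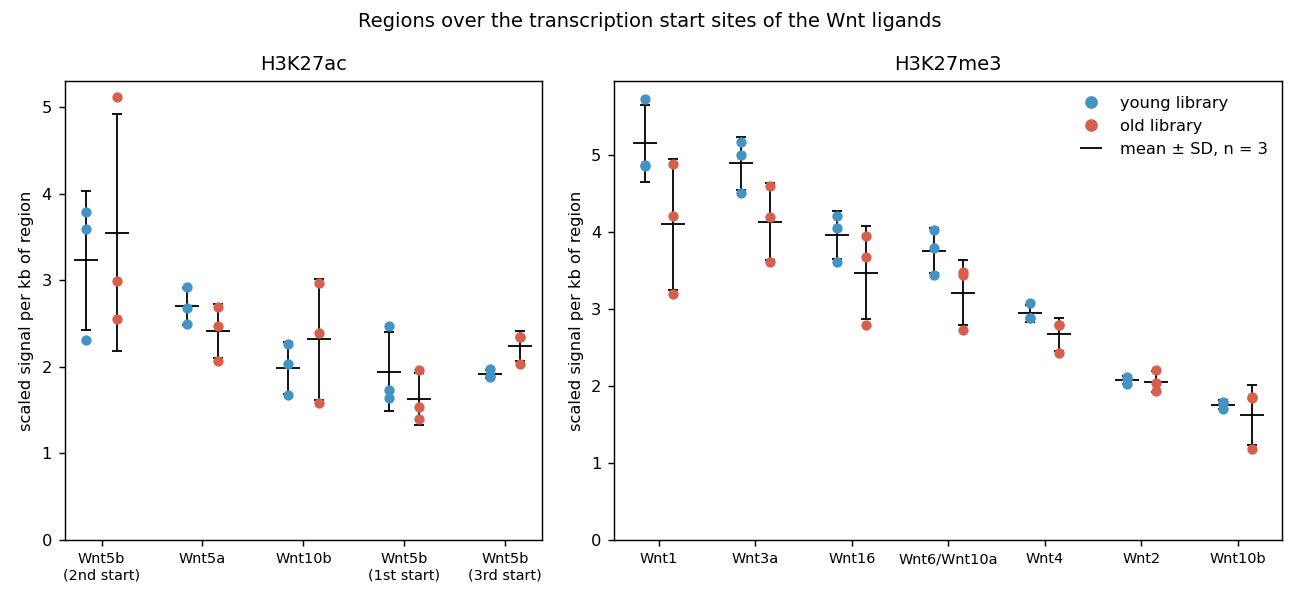
Scaled signal per kb of the regions over the TSSs of the Wnt ligands, left H3K27ac and right H3K27me3. Points are libraries, young in blue and old in red, and bars are the mean ± SD (n = 3). Wnt1 and Wnt3a lead H3K27me3 in young MSCs with 5.15 and 4.89 per kb, and Wnt10b is lowest with 1.76.

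The first comparison asked whether H3K27me3 over the Wnt ligands differed with age. All 12 regions had a lower fitted mean in old MSCs, with log2 differences from -0.35 to -0.02 and a median of -0.16, against 51.4% of all regions lower and a median of -0.01. None of the 12 passed an adjusted p under 0.05 in limma, where 0.488% of all regions were called. At an unadjusted p under 0.05 there were 3 of 12, all lower, against 8.73% of all regions lower at that limit. In edgeR 0 were called, against 1.40% of all regions, and 4 had an unadjusted p under 0.05, against 14.0% of all regions in either direction. Young and old values were fully apart in 3 of 12, all lower in old MSCs, against 10.6% of all regions lower without overlap. Lower H3K27me3 in each cell and fewer cells with the mark cannot be told apart in these bulk samples.

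Properties of the regions moved with this direction. The ligand domains were long and dense, with a median of 43.25 kb against 10.5 kb over all regions and 2.67 against 1.47 scaled signal per kb. Of the 6592 H3K27me3 regions that were at least 20 kb long and at or above the median of all regions in signal per kb, 59.9% were lower in old MSCs, with a median log2 difference of -0.04. The 10 ligand regions among them were all lower, with a median of -0.19. In this class 12.1% of regions were lower at an unadjusted p under 0.05 and 14.5% were lower without overlap of the ages, against 3 of the 10 ligand regions on each measure. One library also weighed on the count. Without old replicate 3, which had the smallest scaling factor of its mark, 9 of 12 regions were lower and the median was -0.09. The part of length, density and this library in the result was not tested beyond these values.

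Wnt1 had the largest H3K27me3 difference of the 12 regions. Its region, chr15:98787001-98810500, covered the whole gene and the TSS of Ddn. The scaled signal was 114, 114 and 135 in the young libraries and 115, 99.0 and 75.1 in the old ones, so old replicate 1 lay inside the young range and the other old libraries below it. The mean was 121 ± 11.8 in young and 96.3 ± 20.0 in old MSCs (SD, n = 3), a log2 difference of -0.35 (SE 0.13, limma adjusted p = 0.206). Without old replicate 3 it was -0.18, and the region downstream of Wnt5b then had the largest difference, at -0.20.

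The domain of Wnt3a, chr11:59231501-59326000, was 94.5 kb long and also held Wnt9a. The signal was 425, 473 and 488 in the young libraries and 434, 396 and 340 in the old ones. The order of the old libraries was the same as over Wnt1, and old replicate 1 again overlapped the young range. The log2 difference was -0.25 (SE 0.09, limma adjusted p = 0.204), or -0.15 without old replicate 3.

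Wnt6 and Wnt10a, neighbours transcribed in the same direction, shared 1 domain of 55.5 kb, chr1:74757501-74813000. Wnt10a and Wnt6 both activate β-catenin, and Wnt10a is known for its role in teeth, hair and sweat glands. The domain had 191, 210 and 223 in the young libraries and 191, 193 and 151 in the old ones. Old replicate 3 was the lowest, while the other old libraries lay at the lower end of the young values, and the log2 difference was -0.23 (SE 0.10, limma adjusted p = 0.293), or -0.11 without old replicate 3. A domain of 227.5 kb that begins 32.5 kb from the Wnt10a start, and which held Ihh and other genes, differed by -0.17 (adjusted p = 0.371), or -0.07 without that library. Wnt6 had no H3K27ac region in its window.

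The H3K27me3 regions whose young and old values did not overlap were those of Wnt4 and Wnt5a. Signal was counted over whole regions, and these lay mostly (Wnt4) or wholly (Wnt5a) outside the gene. Wnt4 is a ligand of kidney and reproductive tract development. Its domain of 237 kb, chr4:137048501-137285500, also held the TSS of Zbtb40. The domain entered the Wnt4 gene from upstream and covered 36.0% of it. It had 682, 728 and 683 in the young and 660, 661 and 575 in the old libraries. The log2 difference was -0.15 (SE 0.08, limma adjusted p = 0.408), or -0.07 without old replicate 3.

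For Wnt5a, the upstream domain of 217 kb, chr14:28287001-28504000, stopped 0.75 kb before the TSS. It had 457, 448 and 453 in the young libraries and 424, 386 and 411 in the old ones, a log2 difference of -0.15 (SE 0.07, adjusted p = 0.368) that was -0.16 without old replicate 3. All old values were below all young values, and the young libraries were close together, at 453 ± 4.598 (SD, n = 3). The domain downstream of Wnt5a, chr14:28531001-28561000, had 48.4 ± 4.63 in young and 43.5 ± 0.793 in old MSCs (SD, n = 3; adjusted p = 0.609).

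The remaining H3K27me3 regions differed less or varied more. Over Wnt16, in chr6:22279001-22301000, the old values of 86.9, 80.8 and 61.5 spread across the young values of 79.4, 89.1 and 92.6 (log2 difference -0.20, limma adjusted p = 0.471, or -0.049 without old replicate 3). The domain downstream of Wnt5b, which reached Adipor2, differed by -0.20 (adjusted p = 0.467) with overlapping groups. Over Wnt10b, in chr15:98769001-98779500, old replicates 1 and 2 were above all young libraries and old replicate 3 below, at 19.4, 19.3 and 12.4 against 17.8 to 18.8 (log2 difference -0.14, adjusted p = 0.783). Wnt2, a ligand of lung and vessel development, differed least, with 137 ± 3.11 in young and 136 ± 9.21 in old MSCs (SD, n = 3; log2 difference -0.02, adjusted p = 0.955). The upstream region of Wnt16 differed by -0.11 (adjusted p = 0.815).

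The second comparison asked the same of H3K27ac. Here the ligands had no common direction, with 10 of 22 regions lower and 12 higher in old MSCs and a median log2 difference of 0.01, against 50.4% of all regions lower. Again 0 of 22 were called in limma, where 0.0822% of all regions were. At an unadjusted p under 0.05 there were 2, against 9.60% of all regions. In edgeR 0 were called, against 0.304%, and 2 reached that limit, against 9.55%. Young and old values were fully apart in 5 of 22, of which 2 were lower and 3 higher, against 14.5% of all regions. All 3 that were higher lay in Wnt5b, and 1 of them was a region that the deposited table assigned to the old state alone. That region was also 1 of the 2 with an unadjusted p under 0.05 in limma and in edgeR. The other was upstream of Wnt16. The old-state region is in the table through the age in which it is high, so its place in these counts is no evidence of an age difference.

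**Figure D3:**
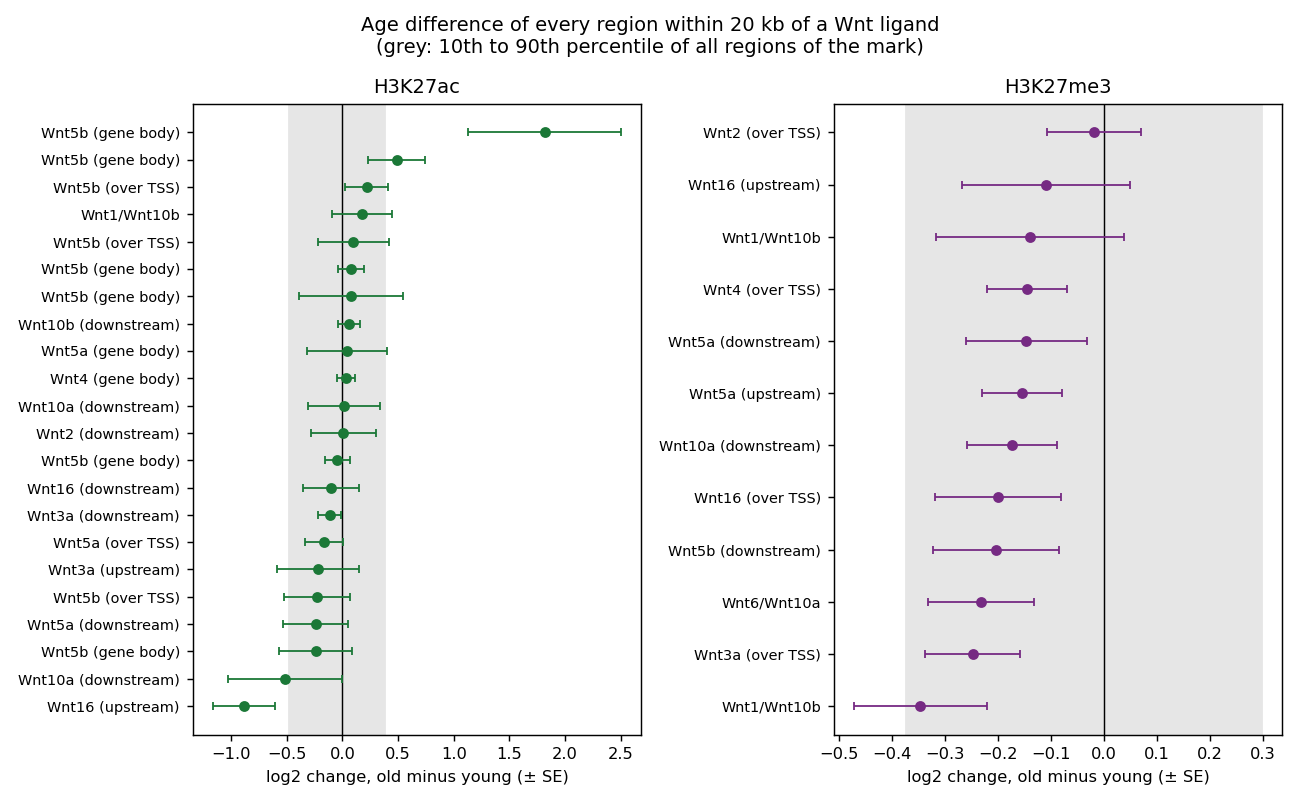
Log2 difference of old minus young MSCs for each region of the Wnt ligands, with its SE from limma; left H3K27ac, right H3K27me3, and in grey the 10th to 90th percentile of all regions of the mark. All 12 H3K27me3 points lie below 0, while the H3K27ac points lie on both sides, with the region upstream of Wnt16 at -0.89 and a short Wnt5b region of the old state at 1.82.

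The largest H3K27ac difference resting on more than a few reads was upstream of Wnt16. A region of 4.0 kb, chr6:22278001-22282000, lay 6.23 kb before the gene and overlapped the H3K27me3 domain of Wnt16 by 3000 bp. Its scaled signal was 12.4, 10.4 and 10.2 in the young libraries and 4.78, 6.29 and 6.12 in the old ones. Every old value was below every young value, and the mean was 10.998 ± 1.23 in young and 5.73 ± 0.825 in old MSCs (SD, n = 3). The log2 difference was -0.89 (SE 0.28), which did not pass after adjustment (limma adjusted p = 0.228). It stayed between -0.999 and -0.751 under all 11 alternatives, with a smallest adjusted p of 0.128. The region held 8 to 38 reads per library. A second region, 24.3 kb into the direction of transcription from the Wnt16 start, differed by -0.10 (adjusted p = 0.934).

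Wnt5b, with 9 H3K27ac regions, had a mixed pattern. At the 3′ end of the gene, chr6:119430501-119433500, the signal was 8.17, 8.08 and 7.56 in the young libraries and 10.8, 11.01 and 12.2 in the old ones. The groups were apart, with means of 7.94 ± 0.325 and 11.3 ± 0.786 (SD, n = 3), but the log2 difference of 0.49 (SE 0.25) had a limma adjusted p of 0.549. The region over the third start, chr6:119445501-119454000, was also higher in every old library, with 19.9, 17.3 and 19.9 against 16.0, 16.7 and 16.1 (log2 difference 0.22, adjusted p = 0.774). Over the outermost start, chr6:119541501-119545500, the order was the other way, with 7.77 ± 1.82 in young and 6.52 ± 1.19 in old MSCs (SD, n = 3), and the groups overlapped (log2 difference -0.23, adjusted p = 0.857).

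The widest H3K27ac of Wnt5b lay in its introns. The regions of 28.0 kb and 24.5 kb there differed by 0.08 and -0.05 (limma adjusted p = 0.880 and 0.937), and the first also held the TSS of Fbxl14. Between them lay 1 region of 1.0 kb, chr6:119505001-119506000, which the deposited table assigned to the old state alone. It held 1, 1 and 0 reads in the young and 10, 3 and 2 reads in the old libraries. Such a region is in the table through the age in which it is high, and 1 old library gave most of the reads, so its log2 difference of 1.82 (limma adjusted p = 0.361) is given as a description. The other 3 Wnt5b regions differed by -0.24 to 0.10, with overlapping groups.

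Over both starts of Wnt5a, chr14:28503501-28513000, H3K27ac was 27.8, 25.4 and 23.7 in the young libraries and 25.5, 19.7 and 23.4 in the old ones. The groups overlapped, and the log2 difference was -0.17 (SE 0.17, limma adjusted p = 0.817). A region inside the gene and 1 downstream, which lay within the H3K27me3 domain there, differed by 0.04 and -0.24 (adjusted p = 0.987 and 0.850).

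Over the Wnt10b start, chr15:98777501-98782000, H3K27ac was 8.95 ± 1.36 in young and 10.4 ± 3.13 in old MSCs (SD, n = 3; log2 difference 0.18, limma adjusted p = 0.886). Wnt10b is a ligand that restrains adipogenesis and favours bone, and in both marks its difference was smaller than the SD of the old libraries. This region also counts for Wnt1, since it lay 7.86 kb before the Wnt1 start. In Wnt4 the H3K27ac region of 73.0 kb, which also held the TSS of Cdc42, had 201 ± 16.4 in young and 205 ± 14.04 in old MSCs (SD, n = 3; log2 difference 0.03, adjusted p = 0.938).

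The remaining ligands had H3K27ac only outside the gene body. A region 1.25 kb before the Wnt3a start, inside the H3K27me3 domain, differed by -0.22 (limma adjusted p = 0.899), and the region of 30.0 kb downstream of the gene, which held the TSSs of Mrpl55 and Arf1, by -0.12 (adjusted p = 0.766). Downstream of Wnt10a, chr1:74808001-74809000 lay inside the H3K27me3 domain and had 2.61, 2.89 and 2.63 in the young and 0.797, 2.36 and 2.55 in the old libraries. Although the groups did not overlap, these are 2 to 8 reads per library, and the log2 difference of -0.52 (SE 0.51) did not pass (adjusted p = 0.799). A second Wnt10a region, the region downstream of Wnt2 and the region of 47.0 kb downstream of Wnt10b differed by 0.01, 0.01 and 0.06, and 0 of them passed.

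At several ligands the marks met edge to edge. In Wnt4 the H3K27me3 domain ended inside the gene, and H3K27ac began after a gap of 500 bp. At Wnt3a the domain and the downstream H3K27ac region touched, with a gap of 0 bp, as did the Wnt10b domain and the H3K27ac region downstream of it. At Wnt5a the upstream domain and the H3K27ac region over the start overlapped by 500 bp, which is 1 step of the region grid. In all, 4 of the 12 ligand domains (33.3%) had an H3K27ac edge within 500 bp of their own edge, against 10.3% of all H3K27me3 regions. Among regions at least 20 kb long it was 3 of 10 ligand domains (30.0%) against 13.9% of all.

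The balance of the marks was taken as log2 of the H3K27ac over the H3K27me3 signal in the gene body plus 20 kb, each with 0.5 added. Each region was weighted by the share of its length inside the window, which takes its signal as even along its length. This was not tested, and signal outside the window enters the values. For Wnt5b the H3K27me3 term came from a domain outside the gene that covered 5.25% of the window. H3K27ac and H3K27me3 libraries of the same age and number were divided. The protocol divided each suspension of cells over both antibodies, but the labels tie the libraries of the marks by that number only. The group means do not depend on this pairing, while the SDs and the overlap of the ages do. The tables had been normalized separately, so a value of 0 has no meaning of equal amounts and no test was made. In young MSCs the balance ranged from 2.94 ± 0.19 in Wnt5b through 0.17 ± 0.10 in Wnt4 and -0.75 ± 0.12 in Wnt5a to -4.59 ± 0.21 in Wnt3a (SD, n = 3). Wnt5a lay below Wnt4 although its start had H3K27ac alone, and its window takes in both flanking H3K27me3 domains.

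The balance was higher in old MSCs for 7 of the 9 ligands with both marks, by a median of 0.11 over the 9. Of 12432 protein-coding genes with both marks in the same window, 59.0% had a higher balance in old MSCs, with a median of 0.06. The count was 5 of 9 without young replicate 3, where Wnt2 and Wnt10a had -0.035 and -0.024, and 6 of 9 without old replicate 3. The ages did not overlap for 3 of 9, all higher in old MSCs, against 11.9% of those genes. Among these, Wnt5b includes the H3K27ac region that the deposited table assigned to the old state alone. Wnt1 had -3.76, -4.05 and -3.83 in young and -3.56, -3.08 and -3.51 in old MSCs, a difference of 0.50. Wnt10b had -0.77, -0.84 and -0.89 in young and -0.70, -0.48 and -0.16 in old MSCs, a difference of 0.39. All old values lay above all young values in both, but the windows of these neighbours share regions. Without old replicate 3 the Wnt10b difference was 0.24. Wnt5b had 2.94 ± 0.19 in young and 3.21 ± 0.15 in old MSCs (SD, n = 3), and its groups were apart as well. The nearest values were 3.070 in young replicate 2 and 3.073 in old replicate 2. Because the H3K27ac term of Wnt5b holds the old-state region, this separation is no evidence of an age difference. The Wnt5b difference of 0.27 was 0.16 without young replicate 3. The differences were 0.17 for Wnt4, 0.11 for Wnt10a, 0.10 for Wnt3a and 0.03 for Wnt2, with overlapping groups. Wnt5a, at -0.01, and Wnt16, at -0.26, had a lower balance in old MSCs, also with overlap. With a window of 5 kb, the Wnt10a difference was -0.28.

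**Figure D4:**
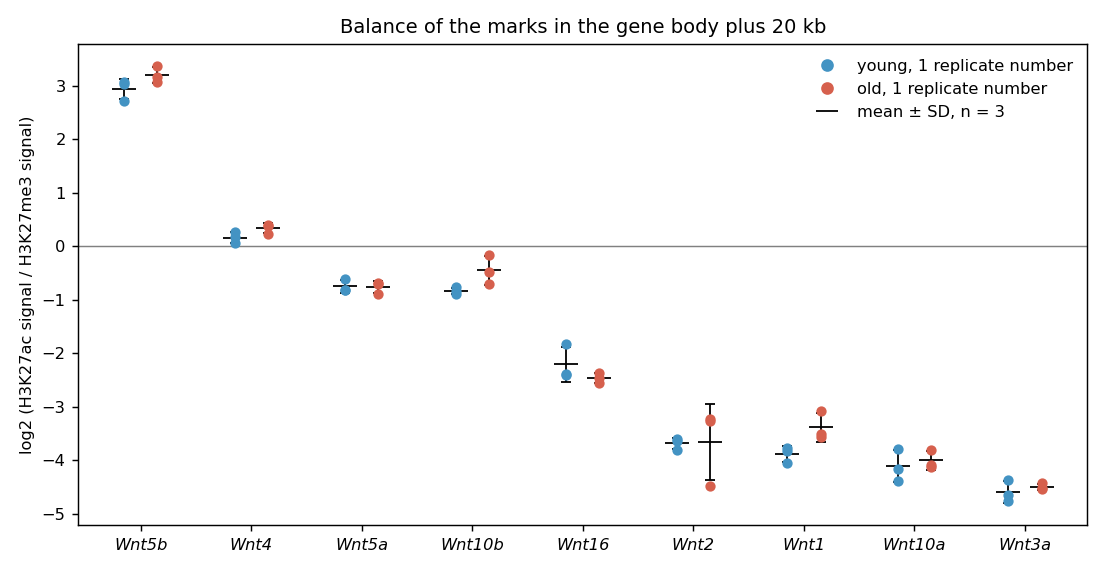
Log2 ratio of H3K27ac to H3K27me3 signal in the gene body plus 20 kb of each Wnt ligand with both marks. Points are pairs of libraries with the same number, young in blue and old in red, and bars are the mean ± SD (n = 3). Wnt5b is highest and Wnt3a lowest at both ages, and the ages are apart in Wnt1, Wnt5b and Wnt10b. The Wnt5b values include the H3K27ac region of the old state alone.

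The other genes of the pathway were read from the same fits, with lists chosen with results of these data known. Of 9 other Wnt ligands, 9 had H3K27me3 and 5 had H3K27ac within 20 kb. The shares to read the counts of every list against are those over all regions, with 51.4% of H3K27me3 and 50.4% of H3K27ac regions lower in old MSCs. Among H3K27me3 regions at least 20 kb long and in the upper range of signal per kb 59.9% were lower. The lists were not matched for length or density. At an unadjusted p under 0.05 there were 13.9% of H3K27me3 and 9.60% of H3K27ac regions in limma, and 0.488% and 0.0822% were called. In edgeR the shares were 14.0% and 9.55% at that limit, and 1.40% and 0.304% were called. Of the 12 H3K27me3 regions of the other ligands, 11 were lower in old MSCs with a median log2 difference of -0.13, 0 were called and 4 had an unadjusted p under 0.05, in limma and in edgeR alike. The domain of Wnt9a is that of Wnt3a and is counted in both lists. Of their 9 H3K27ac regions 0 were called and 0 had an unadjusted p under 0.05 with either tool. The 1 nearest to passing, 14.6 kb from the Wnt11 TSS, differed by 0.39 (limma adjusted p = 0.646). For Porcn, Wls and Notum, which add the lipid, carry the ligand to the cell surface and cut the lipid off, 0 of 9 H3K27ac and 0 of 5 H3K27me3 regions were called by limma or edgeR, and 2 and 0 had an unadjusted p under 0.05 with either. A region 26.2 kb from the Notum TSS had H3K27ac of 27.2 ± 3.15 in young and 38.8 ± 8.66 in old MSCs (SD, n = 3). The groups did not overlap (log2 difference 0.49, limma adjusted p = 0.267). H3K27me3 over the Notum TSS differed by 0.15 (limma adjusted p = 0.642).

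Among 15 receptors and co-receptors, 0 of 45 H3K27ac regions and 1 of 24 H3K27me3 regions were called by limma, and the same numbers by edgeR. At an unadjusted p under 0.05 there were 2 and 3 in limma and 1 and 2 in edgeR. H3K27me3 fell over the TSS of Fzd10, a Frizzled receptor, in chr5:128593501-128610500. The signal was 70.5, 76.9 and 71.9 in the young libraries and 46.7, 42.7 and 46.0 in the old ones, so the groups were far apart. The log2 difference was -0.69 (SE 0.10, limma adjusted p = 0.0046). The largest adjusted p when 1 library was left out was 0.072, without young replicate 2, and without young replicate 3 it was 0.060. An H3K27ac region of 3.0 kb, 329 kb from the Ror1 TSS and with 4 to 23 reads per library, differed by -0.86 (limma adjusted p = 0.403).

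For the R-spondins, their Lgr receptors and the ligases Rnf43 and Znrf3, which set how many Frizzled receptors a cell shows, 0 of 35 H3K27ac and 0 of 15 H3K27me3 regions were called by limma, with 2 of each at an unadjusted p under 0.05. In edgeR 0 and 1 were called, with 1 and 2 at that limit. The domain over Lgr6 had H3K27me3 of 443 ± 24.8 in young and 349 ± 43.1 in old MSCs (SD, n = 3), without overlap (log2 difference -0.35, limma adjusted p = 0.080). It was called on the signal as deposited, in edgeR and without old replicate 1. An H3K27ac region of 1.5 kb, 5.22 kb from the Lgr5 TSS and with 2 to 15 reads per library, differed by -1.12 (limma adjusted p = 0.388). For β-catenin, the TCF and LEF factors and common target genes, 0 of 27 H3K27ac and 0 of 18 H3K27me3 regions were called by limma or edgeR. In limma 4 of each had an unadjusted p under 0.05, and in edgeR 3 and 4. Of the 27, 20 were lower in old MSCs, with a median log2 difference of -0.14 that compares with -0.00 over all regions. Of the 18 H3K27me3 regions 10 were lower, and of the 4 at that limit in limma 3 were higher. In this list an H3K27ac region 47.2 kb from the Tcf7l2 TSS differed by -0.19 (limma adjusted p = 0.420). Lef1 differed in H3K27me3 by -0.29 (limma adjusted p = 0.143). The lists had no common direction. Lower H3K27ac regions were 2 of 9 for the other ligands and 6 of 9 for Porcn, Wls and Notum. They were 29 of 45 for the receptors and 14 of 35 for the R-spondin list. In H3K27me3 the last 3 lists had 2 of 5, 14 of 24 and 8 of 15 lower.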

How the data were processed

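Regions of H3K27ac and H3K27me3 were deposited by the authors as 1 table per mark with 1 signal value per region and library. The submitters' processing notes name Bowtie2, Picard and mm10 (GRCm38), while the caller and its settings were not given in the sources used here. The tables call the signal RPKM, but 100% of values in each column were whole multiples (tolerance 0.01 reads) of 1 read per 1000000 library reads and per 0.5 kb, whatever the region length, so library totals and reads were recovered. A signal therefore counts reads over a whole region, and a long region has smaller counting error than a short one. Replicate identity came from the labels. Of columns with values per sample, 0 were left unused.

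Signal was scaled by the median of ratios (RLE), which assumes that the typical region does not differ between ages, and log2(signal + 0.5) was fitted with limma 3.58.1 (trend, robust, two-sided) on all regions of a mark. This scale understates differences of low regions. P-values were adjusted within each mark by Benjamini-Hochberg, and a region was called under 0.05. The scripts were tested on simulated data. Alternatives were the signal as deposited, a pseudocount of 2, omission of the lowest 25% of regions, edgeR 4.0.16 (quasi-likelihood) on recovered reads, the replicate number as a block, and omission of each library. Regions were placed on GENCODE vM21 basic. The test had been planned for RPKM and was kept, because a constant divisor leaves fold changes as they are. The named genes were every region of a ligand, and in each pathway list and mark every called gene and the gene with the smallest p. The ligands, lists and tests were chosen with earlier results of these data known. The publication supplied does not report these libraries and served for style. The labels give no batch.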

Additional observations from a re-analysis of the deposited data

How the results depend on the processing

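In all settings tried, 0 of the ligand regions were called in either mark, and the median differences moved by less than the spread (H3K27ac -0.10 to 0.05, H3K27me3 -0.29 to -0.09). Omission of the lowest 25% of regions left 17 of 22 H3K27ac ligand regions.

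Over all regions, the 26 H3K27ac calls became 105 on the signal as deposited (16 higher and 89 lower), 63 with a pseudocount of 2, 96 in edgeR (55 higher and 41 lower) and 81 with the replicate number as a block (46 higher and 35 lower), and 2 to 45 without 1 library, with 2, 10 and 4 without young replicate 1, young replicate 3 and old replicate 2. The 137 H3K27me3 calls became 774 as deposited (21 higher and 753 lower), 81 without the lowest 25%, 394 in edgeR and 309 with the block, and 10 to 313 without 1 library, with 12, 17 and 10 without young replicates 1, 2 and 3. Young and old deviations with the same replicate number correlated at -0.05 to 0.07 for H3K27ac and -0.08 to 0.04 for H3K27me3. Pairs with different numbers ranged from -0.096 to 0.075 and from -0.13 to 0.13. With n = 3 per group these values cannot decide whether the numbers pair the samples.

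On the signal as deposited, the median of all regions moved to -0.12 for H3K27ac and -0.13 for H3K27me3, and small positive H3K27ac differences changed sign, to -0.10 for the second Wnt10a region, -0.089 for Wnt4, -0.10 for Wnt2, -0.025, -0.016 and -0.040 for the Wnt5b regions that start at 119460001, 119466501 and 119477001, -0.066 inside Wnt5a and -0.060 downstream of Wnt10b. In edgeR the Wnt5b region at 119466501 had -0.014. Without 1 library, the range crossed 0 for H3K27ac of the second Wnt10a region (-0.12 to 0.23), Wnt4 (-0.040 to 0.067), Wnt2 (-0.20 to 0.36), the second Wnt16 region (-0.38 to 0.17), Wnt5b at 119460001 (-0.061 to 0.22), 119466501 (-0.18 to 0.29) and 119534501 (-0.42 to 0.032), Wnt5a inside the gene (-0.21 to 0.38) and the Wnt10b start (-0.017 to 0.41). Without old replicate 3, H3K27me3 was higher in old MSCs at Wnt2 (0.031), upstream of Wnt16 (0.023) and at Wnt10b (0.074), the lowest values without 1 library being -0.068, -0.21 and -0.24. That of Notum ranged from -0.016 to 0.25. The Wnt10a balance difference with a 5 kb window was -0.28. Leaving out 1 library gave 5 to 8 of 9 ligands with a higher balance in old MSCs. The causes were not tested. At 8 or fewer reads per library, the short Wnt10a region has a large counting error.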
